A study of Mus musculus with 4 samples.

Results

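The NF-κB pathway was described through 10 genes: 5 inhibitors or IκB-like regulators (Tnfaip3, Nfkbia, Nfkbib, Nfkbie, Nfkbiz) and 5 subunits (Nfkb1, Nfkb2, Rela, Relb, Rel), out of 31703 genes named on the array. A probe belonged to a member when its gene name in the scanner files was a listed symbol or an older symbol of the same gene, which gave 14 probes. The members were chosen by detection values: the group was picked because Tnfaip3 was detected on the wild-type and not on the Ezh2-null bone marrow array, so the bone marrow genotype values below describe that choice and are no evidence for it.

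NF-κB is a family of dimeric transcription factors that IκB proteins hold in the cytoplasm until upstream kinases mark the IκB for destruction. The freed dimers switch on inflammatory and survival genes, among them Nfkbia and Tnfaip3, whose products then shut the pathway down again. In blood-forming tissue the pathway is known for its role in the survival and activation of lymphoid and myeloid cells.

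The samples were mouse erythrocyte/megakaryocyte progenitors, precursors of red cells and of the megakaryocytes that shed platelets, all on a C57BL/6 background. The 4 samples were wild-type and Ezh2-null progenitors of E14.5 fetal liver, and wild-type and Ezh2-null progenitors of adult bone marrow. Ezh2 is the histone methyltransferase of Polycomb repressive complex 2. Each sample was hybridised to 1 single-colour array, so no difference between a pair of arrays has a replicate check, and a difference of at least 2-fold (1 on the log2 scale) is called by its size alone. The labels do not say how the null allele was made, how the progenitors were isolated or how many animals were pooled.

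Levels are given in arbitrary units, as array spot intensities with their 75th percentiles made equal. A probe is called detected when its signal was flagged as well above background, which held for between 39.0% and 46.4% of 39418 probes per array. The lowest detected signal of an array, its floor, was 19.3 and 13.3 for the wild-type and null fetal liver arrays and 11.1 and 9.99 for the wild-type and null marrow arrays. A gene detected on 1 array of a pair is given as at least N-fold apart, the bright signal over the floor of the dim array or over the dim signal itself where that was higher. Ezh2 itself, by 1 probe that starts 2558 bases into its transcript, read 33.5 and 194 in wild-type and null fetal liver and 35.4 and 70.0 in wild-type and null bone marrow. It was thus higher on both arrays labelled null, and since the deleted part of the gene is not given in the sources used here, the probe does not check the labels. Genotypes are therefore as labelled throughout.

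Of the defining markers, Gata1, the erythroid and megakaryocytic master regulator, read between 6626 and 10276. Erythroid markers were detected for 8, 9, 8 and 8 of 10 genes in the order wild-type fetal liver, null fetal liver, wild-type bone marrow, null bone marrow, and megakaryocyte markers for 5, 6, 6 and 6 of 10. The summed erythroid level was 48394, 17192, 10286 and 16713, with the globin gene Hba-a1 at 32845 in wild-type fetal liver and 433 in wild-type bone marrow, and the summed megakaryocyte level was 406, 652, 341 and 832. This erythroid sum came mainly from Hba-a1 and Gata1, and single markers did not all move with it. In null fetal liver Gata1, Klf1, Epor, Slc4a1, Alas2 and Hba-a1 were lower than in wild type, and Tfrc, Ermap and Rhag higher. In wild-type bone marrow the former were also lower than in wild-type fetal liver, and Tfrc and Ermap higher. The erythroid sum moves with source and with genotype, and its part in the member values was not tested. The null bone marrow array stood apart for B and lymphoid precursor markers: 9 of 12 were detected there against 3 on the wild-type bone marrow array, with a summed level of 4194 against 217 (375 and 194 in wild-type and null fetal liver), while Ebf1, Rag1 and Il7r were not detected on any array. Hepatocyte markers were detected for 5, 3, 2 and 3 of 8, with summed levels of 698, 169, 83.9 and 106, and Alb and Afp were not detected on any array. Of the granulocyte and macrophage markers, 6, 6, 6 and 5 of 14 were detected, with a summed level of 58404 to 111722 that came mainly from the probe named Itgam (53551 to 104975), and Elane, Lyz2, S100a8 and S100a9 were not detected on any array.

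Sequences of the probes that carry the main differences are shown here in lower case, 5′ to 3′. For Tnfaip3 the first 30 of 60 bases are shown. The pair for Nfkbib is shown because these probes disagreed.
Tnfaip3, starting at base 4302 of its transcript: gtgaaatttgcacagttgtctttcaaagga
Nfkbia, starting at base 970: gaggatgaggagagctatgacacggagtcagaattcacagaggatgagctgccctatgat
Nfkbib, starting at base 1084: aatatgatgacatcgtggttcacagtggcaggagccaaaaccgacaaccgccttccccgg
Nfkbib, starting at base 694: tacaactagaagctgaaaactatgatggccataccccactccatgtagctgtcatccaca
On build mm9 these probes lie on the minus strand at chr10:18720776-18720835 (Tnfaip3), chr12:56590945-56591440 (Nfkbia, listed over 496 bases for a 60-base probe), chr7:29544160-29544219 and chr7:29545252-29546647 (Nfkbib). The exon and UTR status of the probes was not assigned here.

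Tnfaip3 encodes A20, a ubiquitin-editing enzyme that ends NF-κB signalling downstream of TNF and Toll-like receptors. Its probe read 218 ± 22.0 on the wild-type bone marrow array, where ± is the scanner's own error estimate for 1 spot and covers no difference between samples. It was not detected on the other 3 arrays, where it read 3.92 ± 3.90 and 2.96 ± 2.96 in fetal liver (wild type, then null) and 8.41 ± 2.42 in null bone marrow. The null bone marrow signal was flagged as positive and significant over its local background but not as well above it, and both fetal liver signals carried neither flag. Tnfaip3 was therefore at least 21.9-fold lower in null than in wild-type bone marrow (log2 -4.45), the difference for which it was chosen. Between the sources it was at least 11.3-fold higher in wild-type bone marrow than in wild-type fetal liver (log2 3.50), a comparison that shares the wild-type bone marrow array with the first. With normexp background, the correction of the raw signal by a fitted model, this bound was 1.41 on the log2 scale. In the null samples both sources were below detection, and no fold was formed.

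Nfkbia encodes IκBα, the fast-acting inhibitor that NF-κB itself induces. It was not detected in fetal liver, at 13.1 ± 5.21 in wild type and 16.2 ± 3.76 in null, and read 173 ± 17.5 in wild-type and 87.0 ± 9.03 in null bone marrow. Both bone marrow arrays were thus above both fetal liver arrays, and the null bone marrow array was the lower of the bone marrow pair. Nfkbia was at least 8.96-fold higher in bone marrow than in fetal liver in wild type (log2 3.16) and at least 5.38-fold higher in null (log2 2.43). With normexp background these bounds were 0.93 and 0.72 on the log2 scale and no longer reached 2-fold. Within bone marrow it was 1.99-fold lower in null (log2 -0.99), just under the 2-fold threshold.

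**Figure D1:**
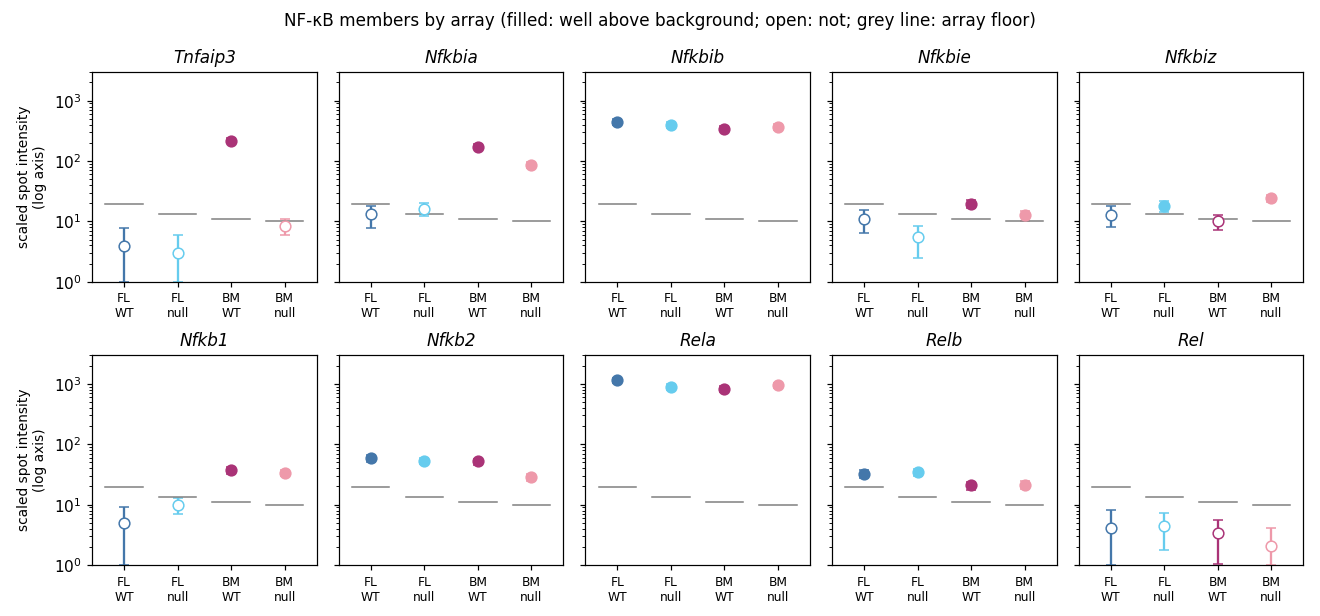
Scaled spot intensity (log axis, arbitrary units) of the 10 NF-κB genes on the 4 arrays, by the probe that stands for each gene; filled points are well above background, open points are not, bars are the scanner's error for 1 array (drawn to the axis where they reach below 1) and grey lines are the floor of each array. Tnfaip3 is filled on the wild-type bone marrow array alone, at 218, Nfkbia is filled on both bone marrow arrays, at 173 and 87.0, and Rela is filled on all 4.

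The stretch before the start of Tnfaip3 and Nfkbia is shown because these genes, both known NF-κB targets, had the largest source differences of the 10. Each is a RefSeq window of 250 bases ending at the annotated start, on assembly GRCm38.p6, written 5′ to 3′ on the strand of the gene, with matches to the κB-like motif (GGGNN followed directly by TTNCC, N being any base) on either strand in capitals. The motif was chosen after the windows had been seen. A window of Nfkb2, a member that was within 2-fold in the 4 comparisons as reported, is set beside them.
Tnfaip3, chr10:19015411-19015660, minus strand: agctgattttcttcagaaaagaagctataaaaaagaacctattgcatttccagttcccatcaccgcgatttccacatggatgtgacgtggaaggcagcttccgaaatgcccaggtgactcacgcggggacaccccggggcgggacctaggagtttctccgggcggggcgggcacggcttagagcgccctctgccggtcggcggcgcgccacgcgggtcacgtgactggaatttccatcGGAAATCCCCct
Nfkbia, chr12:55492648-55492897, minus strand: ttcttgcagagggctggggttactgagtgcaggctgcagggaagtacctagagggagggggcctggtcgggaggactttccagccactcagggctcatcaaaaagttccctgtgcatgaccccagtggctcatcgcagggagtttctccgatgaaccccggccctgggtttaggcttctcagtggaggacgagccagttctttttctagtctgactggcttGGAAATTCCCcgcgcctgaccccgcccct
Nfkb2, chr19:46304487-46304736, plus strand: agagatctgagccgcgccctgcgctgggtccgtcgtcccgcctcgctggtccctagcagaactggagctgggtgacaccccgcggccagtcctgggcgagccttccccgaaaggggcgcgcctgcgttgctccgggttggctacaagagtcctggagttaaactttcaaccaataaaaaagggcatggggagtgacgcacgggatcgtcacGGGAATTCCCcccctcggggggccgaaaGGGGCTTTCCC
The match began 12 bases before the start in Tnfaip3 and 29 bases before it in Nfkbia, in both on the opposite strand to the gene. The Nfkb2 window shown held a match 39 bases before the start that reads on both strands and a pair of overlapping matches at 11 and 10 bases. Another Nfkb2 window, not shown, held a match 225 bases before its start, and a further one held none. Of 7 members with a window in the table, 4 held the motif, in 5 of the 10 windows of all 7, the fourth being Rel with overlapping matches at 92 and 91 bases, whereas Nfkbib, Nfkbie and Rela did not. Of 32851 windows of this length, 1350 (4.11%) held it. Tnfaip3 has a second window in the table without the motif. The motif was thus present in members whose signal differed between the arrays (Tnfaip3, Nfkbia) and in a member within 2-fold in the 4 comparisons (Nfkb2). It was also present in a member not detected by its only probe (Rel).

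The other IκB genes were steadier or near the limit of detection. Nfkbib encodes IκBβ, an inhibitor that is degraded and resynthesised more slowly than IκBα. By the probe with the highest mean signal it read 445 ± 44.7 and 396 ± 39.7 in wild-type and null fetal liver and 344 ± 34.5 and 367 ± 36.7 in wild-type and null bone marrow, with no pair of arrays 2-fold apart. The probe nearer the 5′ end, at base 694, read 116 ± 12.3, 82.6 ± 8.69, 321 ± 32.2 and 144 ± 14.51 in the same order. By that probe Nfkbib was 2.24-fold lower in null than in wild-type bone marrow and 2.77-fold higher in wild-type bone marrow than in wild-type fetal liver. A further probe at base 1885 was detected in bone marrow only, at 21.5 ± 3.24 and 17.4 ± 2.78. The direction between the sources in wild type thus differed among the probes of Nfkbib. Averaged over its probes, Nfkbib was 1.08 higher in null bone marrow than in null fetal liver on the log2 scale.

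Nfkbie, which encodes IκBε, an inhibitor of complexes that hold RelA or c-Rel, was detected in bone marrow alone. It read 19.7 ± 3.04 in wild-type and 12.7 ± 2.44 in null bone marrow, 1.55-fold lower in null, against 10.9 ± 4.50 and 5.43 ± 2.91 below detection in fetal liver. As reported, the fetal liver floors left a source bound of 1.02-fold in wild type and none above 1-fold in null. The bound depended on the scaling: on the log2 scale it was 0.38 to 1.35 in wild type and 0.56 to 0.74 in null with the other 3 scalings of the processed signal, higher in bone marrow in each.

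Nfkbiz, which encodes the nuclear IκBζ that acts as a co-activator of inflammatory genes, was detected by genotype rather than by source. It was found on both null arrays, at 18.2 ± 3.72 in fetal liver and 24.4 ± 3.39 in bone marrow, and on neither wild-type array, at 13.0 ± 5.01 in fetal liver, and under the floor in wild-type marrow. In bone marrow this was at least 2.20-fold higher in null (log2 1.14), or 0.42 on the log2 scale with normexp background. In fetal liver the null signal lay under the floor of the wild-type array, so no difference could be shown. Between the sources in null it was 1.34-fold higher in bone marrow (log2 0.42), and 1.05 to 1.23 with the other 3 scalings of the processed signal.

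**Figure D2:**
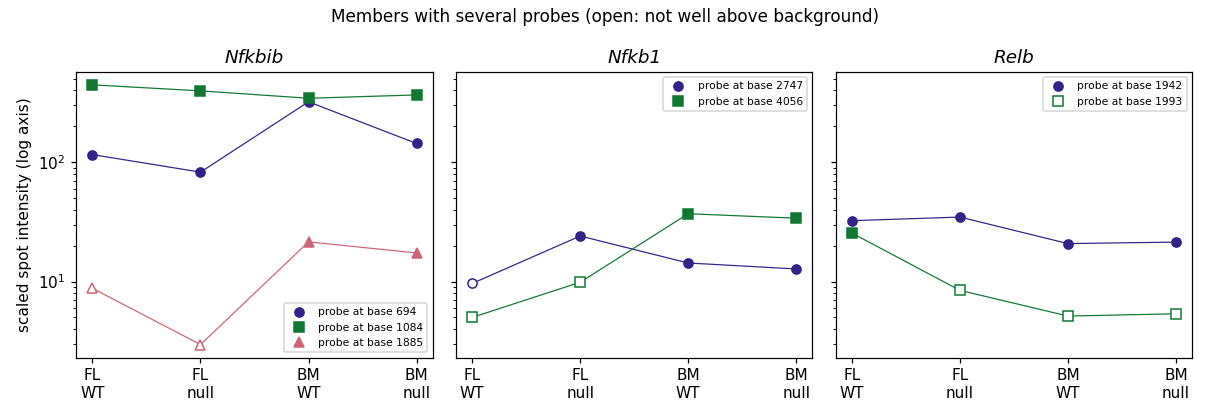
Scaled spot intensity (log axis, arbitrary units) on the 4 arrays for each probe of Nfkbib, Nfkb1 and Relb, named by the base of the transcript at which the probe starts; filled symbols are well above background and open symbols are not. The Nfkbib probe at base 694 peaks at 321 on the wild-type bone marrow array while the probe at base 1084 stays between 344 and 445.

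Among the subunits, Rela and Relb kept within 2-fold in the 4 comparisons by their representative probes. Rela encodes p65, the main transactivating subunit of the canonical pathway. Fetal liver read 1155 ± 116 (wild type) and 891 ± 89.1 (null), and marrow 831 ± 83.1 (wild type) and 942 ± 94.2 (null). The highest and lowest of these arrays differed by 1.39-fold. Relb encodes the partner of p52 in the non-canonical pathway and read 32.4 ± 5.09, 34.7 ± 4.38, 20.8 ± 3.05 and 21.4 ± 3.00 in the same order. It was 1.56-fold lower in bone marrow in wild type and 1.62-fold lower in null, and within 1.07-fold between genotypes in both sources by this probe. The null source difference (log2 -0.70) was -0.07 with percentiles over all probes and turned to 0.01 with quantile normalization and 0.11 with spike-in scaling. A second Relb probe, at base 1993 against 1942, was detected in wild-type fetal liver only, at 25.5 ± 5.38, which made it at least 2.30-fold lower in wild-type bone marrow and at least 1.92-fold lower in null fetal liver. Averaged over both probes, Relb was at -1.47 between the sources in wild type and at -0.75 between genotypes in fetal liver on the log2 scale.

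Nfkb2 encodes p100, which is an inhibitor until it is processed to p52. Its wild-type and null levels were 58.6 ± 7.76 and 52.6 ± 6.28 in fetal liver and 52.1 ± 5.89 and 28.6 ± 3.79 in marrow. The null bone marrow array was the low one, 1.82-fold under wild-type bone marrow and 1.84-fold under null fetal liver, both short of 2-fold. With the other 3 scalings the null source difference of Nfkb2 shrank from -0.88 to between -0.25 and -0.07 on the log2 scale.

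Nfkb1, which encodes p105 and its product p50, was detected in bone marrow only by its representative probe, at 37.0 ± 4.42 in wild type and 34.0 ± 4.03 in null, against 5.005 ± 4.24 and 9.87 ± 2.99 in fetal liver. It was at least 2.56-fold higher in bone marrow in null and at least 1.92-fold higher in wild type, which reached 2-fold in 4 of 8 settings. A second Nfkb1 probe, at base 2747, read 24.1 ± 3.79 in null fetal liver and 12.8 ± 2.59 in null bone marrow, 1.89-fold lower in bone marrow. The source difference in null thus had opposite signs by the Nfkb1 probes, and averaged over them it was 0.43 on the log2 scale. With normexp background it was 0.14. Rel, the lymphoid and myeloid subunit c-Rel, was not detected on any array by its only probe, at 2.05 to 4.49. That 60-base probe is listed over only 15 bases of mm9, and its placement was not checked.

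Counted over the members, 4, 5, 8 and 8 of 10 were detected by their representative probe in the order wild-type fetal liver, null fetal liver, wild-type bone marrow, null bone marrow, beside 41.7%, 48.8%, 44.0% and 44.1% of all genes. Those detected on all 4 arrays were Nfkbib, Nfkb2, Rela and Relb. In fetal liver 5 members could be compared between genotypes and 0 passed 2-fold in either direction, with a median log2 difference of -0.16 beside -0.14 for all genes. Of all genes compared there, 28.6% passed 2-fold, 15.4% higher and 13.2% lower. With spike-in scaling the median of all genes there was 0.27, and Nfkbib, Nfkb2 and Rela turned from lower to higher in null (log2 0.32, 0.33 and 0.12). In bone marrow 9 members were compared, of which Nfkbiz was higher and Tnfaip3 lower in null, with a median of -0.12 beside -0.03 for all genes. The background there was 4.54% higher and 7.63% lower (12.2% either way). Since this contrast chose the group, nothing is read from that count. The higher share of lymphoid markers on the null bone marrow array, given above, moves with this comparison, and its part in the member values was not tested.

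**Figure D3:**
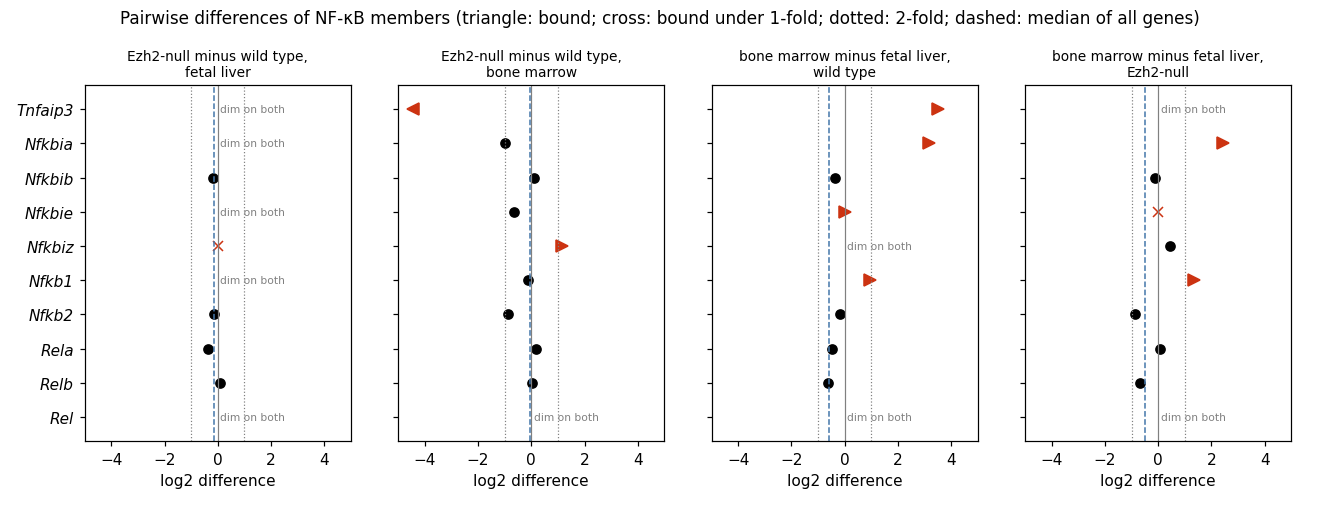
Log2 differences of the 10 members in the 4 pairwise comparisons (horizontal axis, log2), 1 array against 1 array; black points were detected on both arrays, red triangles are bounds that point away from 0, red crosses are bounds under 1-fold, dotted lines mark 2-fold and the dashed line is the median of all genes compared. Tnfaip3 at -4.45 in bone marrow by genotype and Tnfaip3 and Nfkbia at 3.50 and 3.16 between the sources in wild type lie farthest from 0.

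Between the sources in wild type 8 members were compared, of which Tnfaip3 and Nfkbia were higher in bone marrow and 0 were lower, beside 13.1% of all genes higher and 31.8% lower (44.9% either way). The wild-type bone marrow value of Tnfaip3 chose the group, so nothing is read from this count. Of the 8, 4 were bounds for members detected in bone marrow alone, which could not come out lower. In null 8 were compared, 3 of them as such bounds, of which Nfkbia and Nfkb1 were higher and 0 lower, beside 10.3% higher and 26.9% lower (37.1% either way). The median member lay at -0.07 in wild type and 0.04 in null, beside medians of -0.58 and -0.51 for all genes. These medians depend on how the arrays are scaled: with spike-in scaling they were 0.71 and 0.27 and the members' medians 1.25 and 0.81. With spike-in scaling the wild-type source differences of Rela, Nfkb2, Nfkbib and Relb turned from lower to higher in bone marrow (log2 0.85, 1.16, 0.95 and 0.69). Fetal liver and adult bone marrow progenitors also differ in age and in surrounding tissue, which cannot be told apart from source. The lymphoid markers also move with the null source comparison, with a summed level of 4194 in null bone marrow against 194 in null fetal liver. Their part in the member values was not tested. In bulk RNA, fewer cells of a type and less RNA per cell cannot be told apart.

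The genotype differences of both sources were set against each other after signals under 19.3, the highest floor, had been raised to it. Tnfaip3 had a difference of differences of -3.50 (11.3-fold), with both fetal liver arrays at that floor, and was the only 1 of 9 members past 4-fold, beside 9.45% of all genes. As its bone marrow values chose the group, this is a description. The next members were Nfkbia at -0.99, Nfkb2 at -0.71 and Rela at 0.56. For Nfkbia both fetal liver signals had also been raised to 19.3, so its value only repeats its bone marrow genotype difference.

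The source difference could be fitted over both genotypes, with 2 arrays per source and 1 residual degree of freedom. By limma with Benjamini-Hochberg adjustment over 17663 genes, 0 genes passed an adjusted p of 0.05 (background 0%), and 3073 genes had an unadjusted p under 0.05. On simulated data with the residual spread of these arrays the fit recovered 0% of changed genes, even at a true log2 difference of 8. The count of 0 and the adjusted p values therefore cannot separate changed from unchanged genes. Among 9 members tested, Nfkbia was 2.67 ± 0.39 higher in bone marrow on the log2 scale (standard error, adjusted p = 0.28 by limma), Nfkb1 0.88 ± 0.091 higher and Relb lay at -0.67 ± 0.080, both also at an adjusted p of 0.28 by limma. Each had the same sign in both genotypes by its representative probe and as scaled here. The second Nfkb1 probe was at -0.92 in null. Relb was at -0.14 in wild type and 0.01 in null with quantile normalization, and at 0.69 and 0.11 with spike-in scaling. Signals under 19.3 had been raised to it for this fit, which sets the fetal liver side of Nfkbia and Nfkb1. No test is read for Tnfaip3, whose wild-type bone marrow value chose the group.

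The rest of the pathway was read from 6 lists with 90 genes on the array. Of 9 ligands, 8 were not detected on any array, and Ltb, which encodes lymphotoxin beta, was detected at 23.5 in null bone marrow, at least 2.11-fold above wild type. Of 10 receptors, 1, 3, 3 and 3 were detected in the usual order of arrays. Tnfrsf1b, the TNF receptor found mainly on blood and endothelial cells, read 98.9 in null fetal liver, 84.3 in wild-type marrow and 142 in null marrow, and was not detected in wild-type fetal liver, at least 5.13-fold lower than in null (log2 0.68 for null minus wild type with normexp). Tnf, Il1a, Il1b, Icam1, Vcam1 and Il6, commonly used as readouts of active NF-κB, were not detected on any array. These readouts were picked after their values were seen. Of 24 target genes, 12 were not detected on any array. Others were detected on every array by their representative probes, among them Sod2 (1773 to 2967), Bcl2l1 (420 to 989) and Ccl5 (35.4 to 67.8). Whether the pathway was active was not tested.

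Of 22 adaptors and kinases 16 could be compared in null, 6 of them as bounds. Of the 16, 9 were lower and 3 higher in null bone marrow than in null fetal liver, with a median of -1.48. Over all genes 26.9% were lower and 10.3% higher, with a median of -0.51. Among the 9, Ikbkg, Map3k7, Tab2 and Birc2 were not detected in null bone marrow, so they could not come out higher. With detection on both arrays 5 of 10 were lower and 2 higher in null (median -0.88). With normexp 5 of 16 were lower and 1 higher (median -0.79). In wild type 3 of 15 compared were lower and 1 higher, with a median of -0.06 beside -0.58 over all genes. Among them Chuk, which encodes the kinase IKKα, read 226, 225, 92.0 and 68.6 in the usual order. Map3k14, the NIK kinase of the non-canonical pathway, read 123, 108, 50.3 and 36.3. Both were at least 2-fold lower in bone marrow in wild type and in null and within 2-fold between genotypes. With spike-in scaling the wild-type source difference of both was 0.03 on the log2 scale, and the list had 8 higher and 0 lower in wild type (median 1.06) and 5 higher and 5 lower in null (median -0.68). Ikbkg, the scaffold NEMO of the IKK complex, was detected on 3 arrays at 32.8 to 39.5 and not in null bone marrow, at least 3.34-fold lower than in wild type. Traf5, an adaptor of TNF receptor family members, was the adaptor that was higher in null bone marrow, at 73.4 against 22.1 (3.33-fold). Map3k7, the kinase TAK1, read 38.6, 252 and 32.0 on the first 3 arrays and was not detected in null bone marrow. A second probe of Map3k7 was detected in null bone marrow only, at 74.1, so its probes disagreed there. In fetal liver Tab1, a TAK1 partner, was 2.49-fold lower in null, and Traf3, a brake on NIK, was 4.23-fold lower in null bone marrow than in null fetal liver. Irak1, a kinase of Toll-like and IL-1 receptor signalling, read 228, 108, 561 and 498, higher in bone marrow in both genotypes by its representative probe. Another Irak1 probe read 34.0, 62.0, 35.5 and 30.3 and did not show this, and averaged over probes the differences were -0.12 in wild type and -0.05 in null.

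Among 16 other inhibitors and IκB-like genes, 5 of 10 compared were higher and 1 lower in wild-type bone marrow than in wild-type fetal liver, with a median of 0.97, beside 13.1% higher, 31.8% lower and a median of -0.58 over all genes. In null 3 of 13 were higher and 4 lower, with a median of -0.55. Of the 13, 8 were bounds. The 4 lower ones (Nkap, Nkrf, Cyld and N4bp1) were all bounds for genes not detected in null bone marrow, which could not come out higher. With detection on both arrays, 2 of 5 were higher and 0 lower in null (median 0.69). With the other 3 scalings the null median was 0, the value of a bound under 1-fold. There were 4 higher and 1 lower over all probes and with quantile normalization, and 5 higher and 1 lower with spike-in scaling. Zfp36, whose product tristetraprolin destabilises cytokine mRNAs, read 22.7 in wild-type fetal liver and 1099 in wild-type bone marrow (48.4-fold) and 595 in null bone marrow. Nfkbid, which encodes the nuclear IκBNS, was detected in wild-type bone marrow alone, at 100.3, at least 3.33 lower in null on the log2 scale and at least 5.20-fold above wild-type fetal liver, the latter 0.46 on the log2 scale with normexp. Tnip1 and Tnip2 encode partners of A20. Tnip1 read 74.2, 42.8, 188 and 230 in the usual order. Tnip2 read 23.8, 227, 161 and 165, so wild-type fetal liver was its low array, and a second probe was also lowest there. N4bp1 and Rnf11 were 3.57-fold and 2.69-fold lower in null fetal liver, and Itch, the ligase that works with A20, was at least 2.94-fold lower in null bone marrow.

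Of 9 ubiquitin ligase and LUBAC genes, which degrade IκB or build linear ubiquitin, 8 or 9 were detected on each array. Between genotypes in bone marrow 0 of 8 compared passed 2-fold, beside 12.2% of all genes. In fetal liver 2 of 9 were higher and 0 lower in null, beside 15.4% and 13.2% of all genes, and 0 were higher with percentiles over all probes. Fbxw11, an F-box protein that recognises phosphorylated IκB, was 5.03-fold higher in wild-type bone marrow than in wild-type fetal liver, and Ube2n, the E2 enzyme of K63-linked chains, was 2.87-fold higher (log2 -0.55 averaged over its probes). Of 24 target genes, 7, 10, 8 and 9 were detected and 12 were not detected on any array. Between genotypes in bone marrow, 9 targets were compared. Ier3, an early-response survival gene, was 7.51-fold lower in null, at 12.3 against 92.1, while Ccl4, a chemokine, was 2.44-fold higher, at 35.2 against 14.4. Between the sources in wild type 3 of 9 targets were higher and 2 lower, beside 13.1% and 31.8% of all genes. Irf1 was at least 20.4-fold higher in bone marrow by its representative probe (393, and below detection in fetal liver), but another Irf1 probe read 68.6 in fetal liver and 31.2 in bone marrow and went the other way. Tnfaip2 was 2.58-fold higher by its representative probe and Gadd45b 3.18-fold lower (log2 -0.34 with spike-in scaling).

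**Figure D4:**
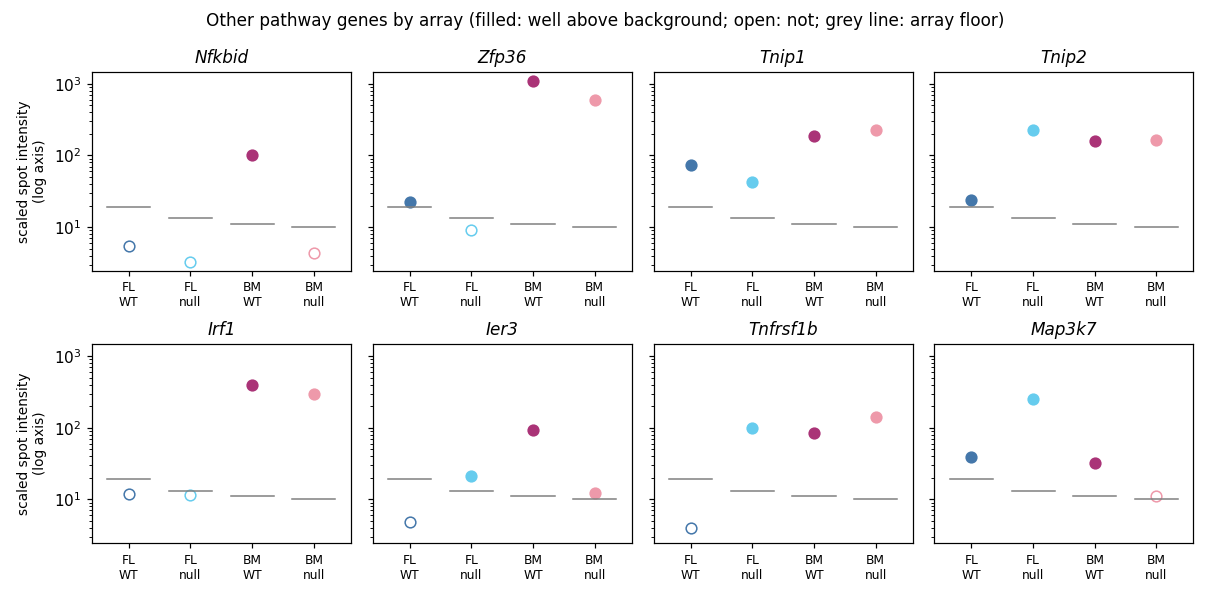
Scaled spot intensity (log axis, arbitrary units) on the 4 arrays for 8 other genes of the pathway by their representative probes; filled points are well above background, open points are not, and grey lines are the floor of each array. Nfkbid is filled on the wild-type bone marrow array alone, at 100.3, while Zfp36 and Irf1 are high on both bone marrow arrays, at 1099 and 595 and at 393 and 296.

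Over all 6 lists, 3 of 45 genes were higher and 5 lower in null than in wild-type bone marrow, near the 4.54% and 7.63% of all genes. In fetal liver 9 of 51 were higher and 6 lower in null, near the 15.4% and 13.2% of all genes.

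Tnfaip3 shared its pattern of detection, wild-type bone marrow alone, with 471 genes. The genes nearest to it over the 4 arrays, by Euclidean distance of log2 values centred on the mean of each gene and raised to the highest floor, were Zfp994 (0.76), Ago3 (0.84), Nfkbid (0.97), Zfp345 (1.02) and 5830427D02Rik (1.03). Because their other arrays are all at that floor, the distance orders them by their wild-type bone marrow level only. Of the pathway lists, Irak4 also shared the pattern, at rank 207 (distance 3.03).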

How the data were processed

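RNA of 4 samples, 1 per group, was hybridised to 1 single-colour Agilent array each, after 250 ng of total RNA had been labelled with Cy3, per the labels' protocols. Per the file headers, deposited spot intensity values came from Agilent Feature Extraction 10.7.3.1 with protocol GE1_107_Sep09 on build mm9, and were background-subtracted and detrended within the array. The deposited 0 or 1 flags give signal well above background. All arrays were on 1 slide, read in 1 scan, without saturated spots.

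Probe values are means over spots, without outlier spots and 11 probes that had no usable spot. Log2 values were scaled to equal 75th percentiles over 12874 probes detected on all 4 arrays. A gene with several probes is represented by its brightest (mean log2 over arrays). Gene names were updated through RefSeq (GRCm38.p6). The scanner's error covers 1 array. For probes printed 10 times the SD between spots was 0.075 to 0.143 (log2). The number of arrays limits the precision.

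With 1 array per group no test between groups was possible. The source term was fitted with limma 3.58.1 (R 4.3.3), source and genotype additive, two-sided. On simulated data with true log2 differences of 1 to 8 and the residual spread of these arrays, that fit recovered 0% of changed genes. With a constant SD of 0.1 it recovered 100%.

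The members and lists were chosen with earlier results of these data known. Named pathway genes come from those at least 2-fold apart, up to 4 per list and comparison; those nearest to Tnfaip3 are the 5 closest by distance. Genes named outside this rule (undetected readouts, second probes) were chosen after their values were seen. Alternatives were percentiles over all probes, spike-in scaling, quantile normalization, normexp background (offset 50), the authors' series table, averaged probes, detection on both arrays and no background filter.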

Additional observations from a re-analysis of the deposited data

Results flagged for a closer look

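The genotype difference, Ezh2-null minus wild type, is given on the log2 scale where its signs in fetal liver and bone marrow were opposite and it was larger in both than the within-array spread (members) or at least 2-fold in both (other pathway genes). With 1 array per group the difference between the sources was not tested. Other pathway genes, and Nfkbib among the members, also had opposite signs with smaller differences. Rela was -0.38 in fetal liver and 0.18 in bone marrow, both under 2-fold. The within-array spread that flagged it covers no difference between arrays. With spike-in scaling Rela was 0.12 in fetal liver and 0.15 in bone marrow, so its signs were no longer opposite. Map3k7 was 2.71 in fetal liver and -1.54, as a bound, in bone marrow, where its second probe went the other way. Ccl4 was -1.09 in fetal liver and 1.29 in bone marrow.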

How the results depend on the processing

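No paired analysis was possible because the labels give no replicate numbers and each group has 1 array. Of 160 alternative values over 20 counts of members and genes, 109 stayed within 1.5 times the reported count. Tnfaip3 stayed at least 2-fold lower in null bone marrow in all 8 settings that gave a value (log2 -4.70 to -2.35), and detection on both arrays leaves it out by construction. This value chose the group, so its range is a description and no evidence for the difference. Tnfaip3 has 1 probe, so averaging probes could not change it, and dropping the filter could only enlarge the bound. Of the other pathway genes named between genotypes in marrow, Ltb, Ikbkg, Traf5, Map3k7, Itch and Ccl4 were under 2-fold with normexp (log2 0.50, -0.51, 0.74, -0.49, -0.61 and 0.45). Of 50 differences that named the pathway genes, 25 fell under 2-fold with normexp, 10 with spike-in scaling, 10 with probes averaged, 8 with percentiles over all probes and 4 with quantile normalization. The count was 0 with no filter, which can only enlarge a bound. It was also 0 with the authors' series table, which holds the scanner values to within 0.496%. As run here, normexp adds an offset of 50 to every signal, which shrinks the folds of dim genes. The losses with normexp cannot be told apart from that shrinkage. Differences quoted above that fell under 2-fold include Tab1 and Rnf11 in fetal liver with spike-in scaling (-0.82 and -0.94). With normexp they include N4bp1 and Rnf11 in fetal liver and Ube2n and Tnfaip2 between the sources in wild type (-0.99, -0.72, 0.01 and 0.94). Averaged over probes, Ikbkg was 0 and Map3k7 1.11. Nfkbia in that comparison ranged from -1.02 to -0.65 over 9 settings.

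Member counts changed as follows. With percentiles over all probes and with quantile normalization, 3 were higher between the sources in each genotype. With spike-in scaling, 2 were lower in null bone marrow, 5 were higher between the sources in wild type and 3 in null. With normexp background, 0 were higher in null marrow, 1 was higher and 1 lower between the sources in wild type, 0 were higher in null, and 0 passed 4-fold in the difference of differences. With detection required on both arrays, 0 passed in either direction between genotypes in marrow, 0 were higher between the sources in either genotype, and 0 passed 4-fold. With probes averaged, 1 was lower between the sources in wild type. With no background filter, 1 was lower in null fetal liver, 3 were higher between the sources in wild type, 4 were higher and 1 lower in null, and 3 passed the limma fit of source. The cause was not tested.

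For all genes, fetal liver genotype calls (2503 higher, 2138 lower) became 3951 and 754 with spike-in scaling, 793 and 1061 with normexp, 1570 higher with detection on both arrays, and 3849 and 4665 with no filter. Bone marrow calls (694, 1166) became 171 and 199 with normexp, 423 and 687 with detection on both arrays, and 1807 and 3163 with no filter. Wild-type source calls (2016, 4896) became 6139 and 338 with spike-in scaling, 712 higher with normexp, 2327 lower with percentiles over all probes, 2484 lower with quantile normalization and 10042 lower with no filter. Null source calls (1715, 4482) became 3749 and 2098 with percentiles over all probes, 4598 and 1825 with spike-in scaling, 2681 and 2478 with quantile normalization, 710 and 2290 with normexp, 2896 lower with detection on both arrays and 8716 lower with no filter. The 4-fold count (1669) became 325 with normexp, 1023 with detection on both arrays and 4171 with no filter. The limma fit of source (0 genes) gave 244 with detection on both arrays and 1398 with no filter.

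The share of calls that were higher moved by over 10 points with scaling in the source comparisons: from 29.2% in wild type and 27.7% in null to 55.0% and 64.1% over all probes, 94.8% and 71.6% with spike-in scaling and 51.7% and 52.0% with quantile normalization. In fetal liver by genotype it moved from 53.9% to 84.0% with spike-in scaling and 42.0% over all probes. Signal near background limits Nfkbie, Nfkbiz, Nfkb1 and Relb, and 1 array per group limits every value.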
